A study of Mus musculus with 30 samples.

Results

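Transcripts of 8 dendritic cell genes were measured in whole B16 melanomas that did or did not secrete a type I interferon (IFN-I). The genes were picked by name, as genes known from dendritic cells and with earlier results of these data known, and were Xcr1, Clec9a, Batf3, Flt3, Zbtb46, Ccr7, Fscn1 and Cd209a. They are 8 of the 39676 gene identifiers in the count table, and all 8 passed the filter on low values, which kept genes whose counts averaged 10 or more over the tumors, and were tested. The study asked how tumors that secrete different IFNα subtypes differ at the level of the tissue. Bulk RNA sequencing was performed on 30 tumors, 10 of each type, that were taken 8 days after inoculation. In the B16-IFNA4 and B16-IFNA9 tumors the melanoma cells carried a retroviral vector with murine IFNα4 or IFNα9 and enhanced green fluorescent protein (GFP), driven by the viral promoter, and in the B16-GFP controls they carried the vector with GFP alone. All 3 types were made from B16-F10, a mouse melanoma line, and all of them, controls included, also carried glycoprotein B of herpes simplex virus with cyan fluorescent protein, and firefly luciferase with puromycin resistance. The cells were grown in C57BL/6 mice, and the transduced cells were sorted for fluorescence, so that each tumor type rests on 1 engineered line.

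Dendritic cells take up antigen in tissues, carry it to lymph nodes and present it to T cells. The conventional type 1 subset (cDC1), which is marked by the chemokine receptor XCR1 and the dead-cell receptor CLEC9A and depends on the transcription factor BATF3, is known for presenting antigen from dying tumor cells to CD8+ T cells. The type 2 subset (cDC2) and monocyte-derived cells present antigen mainly to CD4+ T cells, and any of these cells switch on CCR7 and fascin when they mature and migrate.

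Every library held between 14598517 and 19788383 counts. Ifna4 had 81 to 188 counts in the B16-IFNA4 tumors and 0 in the other 20, and Ifna9 had 55 to 148 counts in the B16-IFNA9 tumors and 0 in the other 20, as the labels say. Tyrp1, Tyr and Mitf, which mark melanocytic cells, were detected in all 30 tumors. Tumor 7 of the B16-GFP group stood apart, with the lowest TMM factor of all (0.768, against 0.856 to 1.10 in the others) and the lowest sum of markers in its group for T cells, natural killer (NK) cells, monocytes, macrophages, fibroblasts and keratinocytes. Calls of the 8 genes that changed without this tumor are given beside them.

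The promoters of the receptor pair Xcr1 and Clec9a are shown because their transcripts varied together from tumor to tumor, and those of Batf3 and Zbtb46 because they are the windows that hold a match to a searched motif. Each is the 250 bases before the RefSeq transcript start on GRCm38.p6, read 5′ to 3′ on the strand of the gene. The windows are chr9:123862030-123862279 on the minus strand for Xcr1, chr6:129408612-129408861 on the plus strand for Clec9a, chr1:191098164-191098413 on the plus strand for Batf3 and chr2:181424389-181424638 on the minus strand for Zbtb46. Capitals mark the match, TTCCACGAA at positions -239 to -231 of Batf3 and TGACTCA at -61 to -55 of Zbtb46, counted back from the transcript start. The Batf3 and Zbtb46 windows lie inside the span that GENCODE gives these genes, since their RefSeq start is not the outermost one.
Xcr1: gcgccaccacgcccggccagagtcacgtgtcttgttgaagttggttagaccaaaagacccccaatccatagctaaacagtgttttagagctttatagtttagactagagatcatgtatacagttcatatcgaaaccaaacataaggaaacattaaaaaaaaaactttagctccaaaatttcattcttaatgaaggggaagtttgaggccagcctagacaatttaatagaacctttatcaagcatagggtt
Clec9a: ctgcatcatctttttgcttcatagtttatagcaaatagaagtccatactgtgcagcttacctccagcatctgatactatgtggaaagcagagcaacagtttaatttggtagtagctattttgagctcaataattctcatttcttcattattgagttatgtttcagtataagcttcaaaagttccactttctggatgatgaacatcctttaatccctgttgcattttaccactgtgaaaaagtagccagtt
Batf3: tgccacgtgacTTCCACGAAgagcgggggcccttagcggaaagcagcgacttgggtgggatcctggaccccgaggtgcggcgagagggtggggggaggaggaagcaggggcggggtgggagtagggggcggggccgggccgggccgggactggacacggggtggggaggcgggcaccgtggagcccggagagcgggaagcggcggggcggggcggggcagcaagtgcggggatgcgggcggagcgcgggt
Zbtb46: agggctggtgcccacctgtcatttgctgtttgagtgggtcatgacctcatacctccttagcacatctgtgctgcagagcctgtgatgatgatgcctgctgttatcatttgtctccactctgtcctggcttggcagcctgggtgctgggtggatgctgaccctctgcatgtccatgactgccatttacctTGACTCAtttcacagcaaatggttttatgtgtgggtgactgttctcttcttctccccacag

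RefSeq gave a promoter for 7 of the 8 genes, all but Ccr7. The letters of 5 motifs were searched for on both strands, the interferon-stimulated response element (GAAA, any 2 bases, GAAA), the gamma-activated site (GAS, TTCNNNGAA), the AP-1 site (TGANTCA), the composite site of ETS and IRF factors (GGAA, any 2 bases, GAAA) and the PU.1 site (GAGGAAGT). The GAS letters were found in the Batf3 window and in 7.02% of 32851 promoters of the same length, and the AP-1 letters were found in the Zbtb46 window and in 6.75% of these promoters. None of the 5 motifs was found in the windows of Xcr1, Clec9a, Flt3, Fscn1 or Cd209a, which says only that these letters are not there. For the other 3 motifs the shares of all promoters were 2.98%, 2.3% and 2.44%.

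Compared to B16-GFP, 3 of the 8 genes rose in B16-IFNA4 tumors, namely Xcr1, Clec9a and Flt3, and none fell. In B16-IFNA9 tumors 6 rose, which added Zbtb46, Ccr7 and Cd209a to these, and Fscn1 fell. Between the interferon types, Xcr1 alone passed the test and was higher in B16-IFNA9. Of all 15926 genes tested, 65.4% were called in B16-IFNA4 (31.3% higher and 34.1% lower), 55.7% in B16-IFNA9 (26.9% higher and 28.9% lower) and 17.8% between the interferon types (10.5% higher and 7.25% lower in B16-IFNA9), at a Benjamini-Hochberg adjusted p under 0.05 in edgeR's quasi-likelihood test. The share of the 8 genes called in B16-IFNA4 was thus below that of all genes, and the share called in B16-IFNA9 above it. The median log2 fold change of the 8 genes was 0.38, 0.63 and 0.14 in the 3 comparisons, beside 0.01, -0.00 and -0.01 over all genes. In whole tumors, fewer cells of a type and less RNA per cell cannot be told apart.

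**Figure D1:**
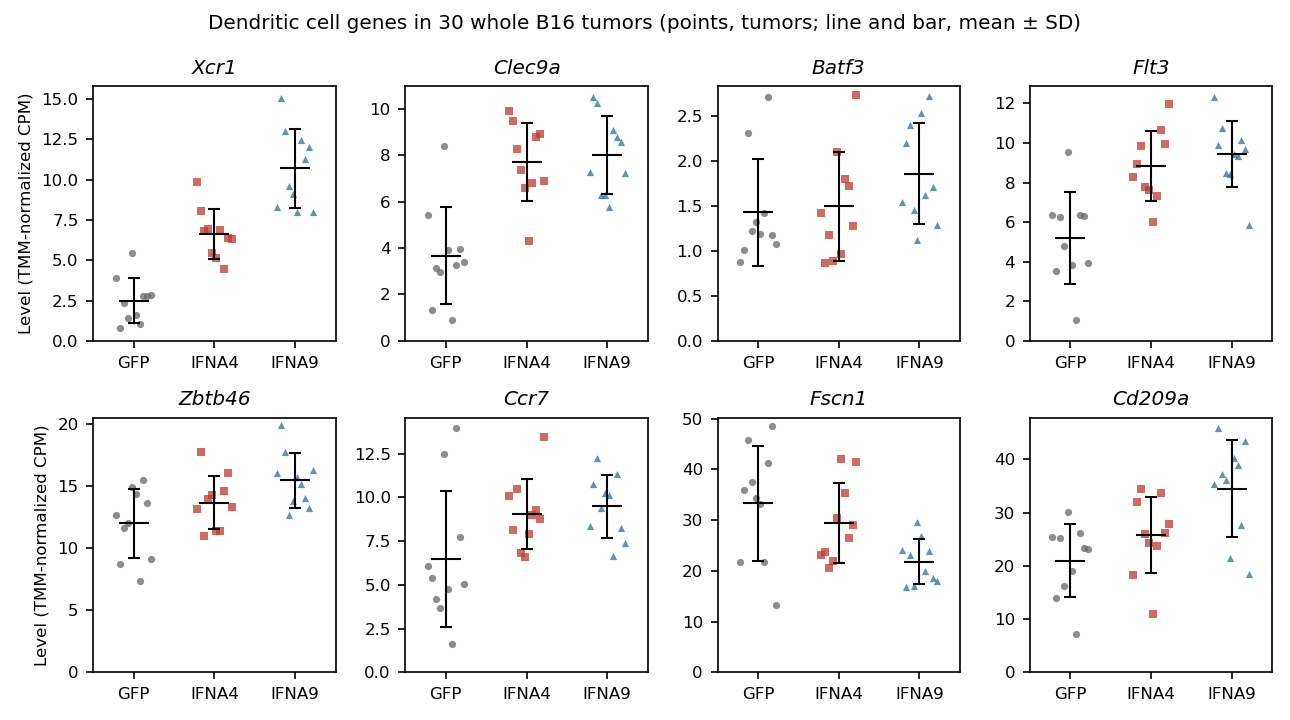
TMM-normalized CPM of the 8 genes in each of 30 tumors, with 10 tumors per type and the mean ± SD of each type; each panel has its own scale from 0. Xcr1 rises from a mean of 2.51 in B16-GFP to 6.63 in B16-IFNA4 and 10.7 in B16-IFNA9, whereas the B16-IFNA9 tumors are the lowest type for Fscn1, with a mean of 21.8.

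Xcr1 (ENSMUSG00000060509.4, chr9:123852315-123862029, minus strand) encodes the receptor through which cDC1 follow the chemokine XCL1. Levels are given as CPM, the counts of a gene over the TMM-scaled library total. In B16-GFP tumors the Xcr1 level ran from 0.801 to 5.44 CPM with a median of 2.57, in B16-IFNA4 tumors from 4.49 to 9.84 with a median of 6.61, and in B16-IFNA9 tumors from 7.97 to 15.1 with a median of 10.5. All 10 B16-IFNA9 tumors were above every B16-GFP tumor, and 7 of 10 B16-IFNA4 tumors were. Xcr1 was the only one of the 8 genes in any comparison whose tumors did not overlap, as was the case for 4.44% of all genes in that direction. Over all genes the share without overlap was 3.35% lower in B16-IFNA9, 8.5% higher and 10.0% lower in B16-IFNA4, and 2.08% higher and 0.741% lower between the interferon types. Compared to B16-GFP it rose by 1.39 ± 0.23 (log2 fold change ± SE, adjusted p = 7.17e-06) in B16-IFNA4, or 2.63-fold, and by 2.08 ± 0.24 (adjusted p = 2.19e-08) in B16-IFNA9, or 4.24-fold. B16-IFNA9 exceeded B16-IFNA4 by 0.69 ± 0.22 (log2, 95% confidence interval 0.23 to 1.15, adjusted p = 0.0303). Here 5 of 10 B16-IFNA9 tumors lay above all B16-IFNA4 tumors, and all 10 lay above the B16-IFNA4 median. This last call was lost without B16-IFNA4 tumor 5, 6 or 8 (adjusted p = 0.0522, 0.0521 and 0.0556) and without B16-IFNA9 tumor 2 or 3 (adjusted p = 0.06 and 0.0512), while the log2 difference stayed at 0.62 or more.

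Clec9a (ENSMUSG00000046080.17, chr6:129408862-129424763, plus strand) encodes a receptor for actin exposed on dead cells. It ranged from 0.892 to 8.41 CPM with a median of 3.34 in B16-GFP, from 4.30 to 9.91 with a median of 7.80 in B16-IFNA4 and from 5.75 to 10.5 with a median of 7.90 in B16-IFNA9. All 20 interferon tumors lay above the B16-GFP median, but B16-GFP tumor 5 reached into the middle of both interferon types, so that the groups overlapped. The rise over B16-GFP was 1.06 ± 0.24 (adjusted p = 0.000277) in B16-IFNA4 and 1.11 ± 0.24 (adjusted p = 0.000239) in B16-IFNA9. The interferon types differed by 0.05 ± 0.23 (95% confidence interval -0.42 to 0.52, adjusted p = 0.912), an interval that holds differences of up to 0.52 on the log2 scale. Exons of Clec9a overlap those of Clec1b on the same strand, and 4.018% of its 50-base stretches also occur in Clec1b, which had at most 13 counts in any tumor. Of the 50-base stretches of Xcr1, 1.431% also occur in transcripts of many other genes, among them Malat1, and of those of Flt3 0.016% do. The part of such shared stretches in the counts was not tested.

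Both receptors mark the same subset, so their counts were also set against each other within each tumor, a comparison chosen after the values were seen. The ratio of Xcr1 counts to Clec9a counts had a median of 0.716 in B16-GFP, 0.885 in B16-IFNA4 and 1.38 in B16-IFNA9. It was above 1 in 1 of 10 B16-GFP tumors, 2 of 10 B16-IFNA4 tumors and 10 of 10 B16-IFNA9 tumors. Compared to B16-GFP the log2 ratio was 0.95 higher in B16-IFNA9 (permutation test with 100000 resamples, two-sided, p = 4e-05, adjusted over 6 such tests 0.00012), and compared to B16-IFNA4 it was 0.63 higher (p = 4e-05, adjusted 0.00012). In each of these comparisons 8 of 10 B16-IFNA9 tumors lay above all tumors of the other type. B16-IFNA4 and B16-GFP differed by 0.31 (p = 0.0876). Without B16-IFNA4 tumor 8 or B16-GFP tumor 7 this last difference was 0.40, with an unadjusted permutation p = 0.0217 in either case. The ratio does not depend on how the libraries are scaled, and since the transcripts differ in length its value of 1 has no meaning of its own. As the same values prompted the comparison, its p-values add no separate support to the Xcr1 calls.

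**Figure D2:**
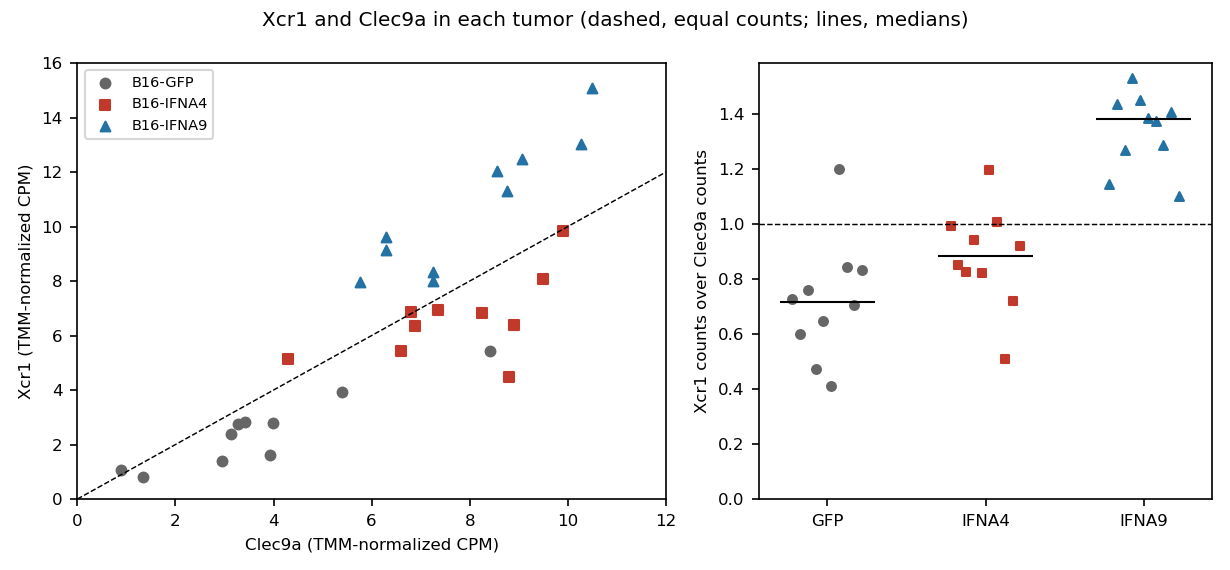
Left, Xcr1 against Clec9a in TMM-normalized CPM, one point per tumor; right, the ratio of their counts in each tumor, with the median of each type. All 10 B16-IFNA9 tumors have more Xcr1 than Clec9a counts, while the medians of the other types are 0.716 and 0.885.

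Within tumor types Xcr1 and Clec9a varied together. Over the 10 tumors of a type, Pearson's r of their log2 CPM was 0.88 in B16-GFP (permutation p = 0.0008, adjusted over 9 such relations 0.00495, Spearman's rho 0.89 with p = 0.00116) and 0.89 in B16-IFNA9 (p = 0.0011, adjusted 0.00495, rho 0.89 with p = 0.00086). Without the 2 tumors farthest from the median of Xcr1 the values were 0.81 and 0.81. In B16-IFNA4 r was 0.52 (p = 0.12, adjusted 0.216, rho 0.56 with p = 0.0955), and 0.81 without the 2 farthest tumors.

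Flt3 (ENSMUSG00000042817.15, chr5:147330741-147400489, minus strand) encodes the receptor of FLT3 ligand, the growth factor on which dendritic cells depend. B16-GFP tumors held from 1.07 to 9.56 CPM with a median of 5.53, B16-IFNA4 tumors from 6.00 to 11.9 with a median of 8.61 and B16-IFNA9 tumors from 5.84 to 12.3 with a median of 9.58. Every interferon tumor was above the median of B16-GFP, and 4 of 10 B16-IFNA4 and 5 of 10 B16-IFNA9 tumors were above all B16-GFP tumors. Flt3 rose by 0.76 ± 0.21 (adjusted p = 0.00208) in B16-IFNA4 and by 0.85 ± 0.21 (adjusted p = 0.000919) in B16-IFNA9. The interferon types differed by 0.10 ± 0.20 (95% confidence interval -0.32 to 0.51, adjusted p = 0.795). Without B16-GFP tumor 7, the lowest, both rises still passed the test, at 0.66 (adjusted p = 0.000661) and 0.74 (adjusted p = 0.000266). Some markers of skin were also higher in the interferon tumors. The 4 keratinocyte markers summed to 439 to 3301 CPM in B16-GFP, 2301 to 4380 in B16-IFNA4 and 834 to 3677 in B16-IFNA9, and the tumors lowest in Flt3 among B16-GFP (tumor 7) and B16-IFNA9 (tumor 10) were also lowest in this sum. In B16-IFNA4 they were not the same tumor, since tumor 3 was lowest in the sum with 9.84 CPM of Flt3, above the median, and tumor 6 was lowest in Flt3. Of the 4, Krt5 (0.63 ± 0.24, adjusted p = 0.0255) and Trp63 (0.71 ± 0.23, adjusted p = 0.00715) rose in B16-IFNA4 and Trp63 in B16-IFNA9 (0.62 ± 0.23, adjusted p = 0.0199), and Krt14 and Krt15 passed the test in neither. Cd207, which encodes langerin of the Langerhans cells of the epidermis, ran from 4.10 to 26.2, 19.1 to 38.7 and 8.85 to 31.9 CPM and rose in both types (0.63 ± 0.22, adjusted p = 0.0124, and 0.51 ± 0.22, adjusted p = 0.0471). The part of skin in the values of Flt3 and of the other 7 genes was not tested. Krt5, Krt14, Krt15, Trp63 and Cd207 are named after their values were seen.

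Batf3 (ENSMUSG00000026630.9, chr1:191097847-191108945, plus strand), the transcription factor that cDC1 need to develop, passed the test in no comparison. Its mean CPM was the lowest of the 8 genes in each type. It ran from 0.874 to 2.71 CPM in B16-GFP, 0.867 to 2.74 in B16-IFNA4 and 1.13 to 2.73 in B16-IFNA9, with medians of 1.21, 1.35 and 1.67. CPM does not take exon length into account. Per kb of exon, Batf3 in B16-GFP (mean 0.897) was above Flt3 (0.842) and Xcr1 (0.563). The log2 fold changes over B16-GFP were 0.06 ± 0.23 (adjusted p = 0.827) in B16-IFNA4 and 0.38 ± 0.23 (95% confidence interval -0.10 to 0.85, adjusted p = 0.166) in B16-IFNA9. The highest B16-GFP tumor, number 8, was close to the highest tumors of both interferon types, and without it the B16-IFNA9 fold change was 0.53 (adjusted p = 0.0466). The sign of the B16-IFNA4 value turned in 3 of 30 fits that each left out 1 tumor (B16-GFP 1, B16-IFNA4 5 or B16-IFNA4 10).

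Zbtb46 (ENSMUSG00000027583.13, chr2:181387762-181459426, minus strand) encodes a transcription factor that is shared by the conventional subsets and is also present in endothelial cells. It ran from 7.31 to 15.5 CPM with a median of 12.3 in B16-GFP, from 10.96 to 17.7 with a median of 13.6 in B16-IFNA4 and from 12.6 to 19.9 with a median of 15.4 in B16-IFNA9. All 10 B16-IFNA9 tumors lay above the B16-GFP median, 5 of them above every B16-GFP tumor. The rise in B16-IFNA9 was 0.36 ± 0.12 (adjusted p = 0.0123), the smallest among the called genes, and the B16-IFNA4 value was 0.19 ± 0.12 (adjusted p = 0.176). Of 4 endothelial markers, Pecam1, Cdh5 and Tie1 fell in B16-IFNA4 (-0.43, -0.84 and -0.97) and in B16-IFNA9 (-0.99, -1.51 and -1.58), and Kdr rose in B16-IFNA4 (1.35 ± 0.16, adjusted p = 1.6e-08) and was at -0.0044 ± 0.16 in B16-IFNA9. The summed endothelial level was 137 to 357 CPM in B16-GFP, 190 to 307 in B16-IFNA4 and 91.3 to 180 in B16-IFNA9, and its part in the Zbtb46 values was not tested.

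Ccr7 (ENSMUSG00000037944.8, chr11:99144196-99155077, minus strand) encodes the receptor that guides mature dendritic cells, and also naive T cells, to lymph nodes. Its B16-GFP tumors spread from 1.61 to 13.95 CPM with a median of 5.22, its B16-IFNA4 tumors from 6.59 to 13.5 with a median of 8.90 and its B16-IFNA9 tumors from 6.66 to 12.3 with a median of 9.77. All interferon tumors were above the B16-GFP median, yet none was above the highest B16-GFP tumor. The log2 fold change was 0.47 ± 0.23 (adjusted p = 0.074) in B16-IFNA4 and 0.54 ± 0.23 (adjusted p = 0.0492) in B16-IFNA9, and the interferon types differed by 0.07 ± 0.23 (95% confidence interval -0.41 to 0.54). Neither side of the threshold was firm. The B16-IFNA9 call was lost in 22 of 30 fits that each left out 1 tumor, with adjusted p up to 0.0897, and was 0.0689 without B16-GFP tumor 7. The B16-IFNA4 difference was called without B16-GFP tumor 5 (0.63, adjusted p = 0.0157) or tumor 8 (0.67, adjusted p = 0.00813). The summed level of 6 T cell markers was 2.94 to 57.8 CPM in B16-GFP, 54.6 to 120 in B16-IFNA4 and 20.5 to 83.6 in B16-IFNA9. The medians of this sum were 13.1, 76.7 and 61.5. Of these markers Cd4, named after its values were seen, spread the most in B16-GFP, with a mean of 7.25 CPM and an SD of 13.8. The part of this sum in the Ccr7 values was not tested.

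Fscn1 (ENSMUSG00000029581.14, chr5:142960343-142973185, plus strand) encodes fascin, an actin-bundling protein of mature dendritic cells that many tumor and stromal cells also make. It ranged from 13.2 to 48.5 CPM with a median of 35.1 in B16-GFP, from 20.5 to 42.1 with a median of 27.8 in B16-IFNA4 and from 16.8 to 29.6 with a median of 21.6 in B16-IFNA9. Every B16-IFNA9 tumor was below the B16-GFP median, although the lowest tumor of all was B16-GFP 10. Fscn1 fell in B16-IFNA9 by 0.61 ± 0.18 (adjusted p = 0.00496) and differed from B16-GFP by -0.18 ± 0.18 (adjusted p = 0.38) in B16-IFNA4. Between the interferon types the value was -0.43 ± 0.18 (95% confidence interval -0.80 to -0.07, adjusted p = 0.0952), and 5 of 10 B16-IFNA9 tumors were below all B16-IFNA4 tumors. That difference was called without B16-GFP tumor 10 (adjusted p = 0.0488). The 3 melanocytic markers fell in both interferon types, with a summed level of 7214 to 22818 CPM in B16-GFP, 2157 to 3630 in B16-IFNA4 and 3367 to 8916 in B16-IFNA9, and their part in the Fscn1 values was not tested.

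Fscn1 and Ccr7, which mature dendritic cells switch on together, thus differed in the direction of their B16-IFNA9 calls. Of these the Ccr7 call was not firm, since it was lost in 22 of 30 fits that each left out 1 tumor. The ratio of Fscn1 counts to Ccr7 counts, chosen for a test after the values were seen, had medians of 6.45 in B16-GFP, 3.15 in B16-IFNA4 and 2.35 in B16-IFNA9. On the log2 scale the difference from B16-GFP was -0.81 in B16-IFNA4 (permutation p = 0.0175, adjusted over 6 tests 0.021) and -1.299 in B16-IFNA9 (p = 0.00034, adjusted 0.00068), and the difference of B16-IFNA9 from B16-IFNA4 was -0.48 (p = 0.0104, adjusted 0.0156). As the same values prompted these tests, they add no separate support to the difference in direction. Within types the 2 genes were weakly related, with r of 0.34, 0.19 and 0.35 over 10 tumors each (permutation p = 0.339, 0.591 and 0.315; adjusted over 9 relations 0.43, 0.591 and 0.43). Spearman's rho was 0.21, -0.12 and 0.21 (p = 0.561, 0.759 and 0.566), and r was 0.06, -0.20 and 0.21 without the 2 tumors farthest from the median of Ccr7.

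Cd209a (ENSMUSG00000031494.7, chr8:3743397-3748984, minus strand) encodes a lectin of monocyte-derived and type 2 dendritic cells. B16-GFP tumors had from 7.14 to 30.1 CPM with a median of 23.2, B16-IFNA4 tumors from 11.05 to 34.4 with a median of 26.04 and B16-IFNA9 tumors from 18.5 to 45.9 with a median of 36.7. In B16-IFNA9, 7 of 10 tumors were above every tumor of either other type, and 2 tumors were below the B16-GFP median. Cd209a rose in B16-IFNA9 by 0.71 ± 0.20 (adjusted p = 0.00379). The values were 0.29 ± 0.20 (adjusted p = 0.202) for B16-IFNA4 against B16-GFP and 0.42 ± 0.20 (95% confidence interval 0.01 to 0.83, adjusted p = 0.154) between the interferon types. The levels of the 8 genes per kb of exon can be set side by side between genes, and Cd209a had the highest mean over the 30 tumors, 17.1 CPM per kb, followed by Fscn1 with 9.37 and Ccr7 with 4.22. Clec9a, Zbtb46, Xcr1, Flt3 and Batf3 followed, between 1.96 and 1.00. The order of these lower genes differed between the types. In B16-GFP the mean of Zbtb46 (1.41) was above that of Clec9a (1.12), and Xcr1 was the lowest (0.563). In B16-IFNA9 Xcr1 (2.40) was above Zbtb46 (1.81).

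**Figure D3:**
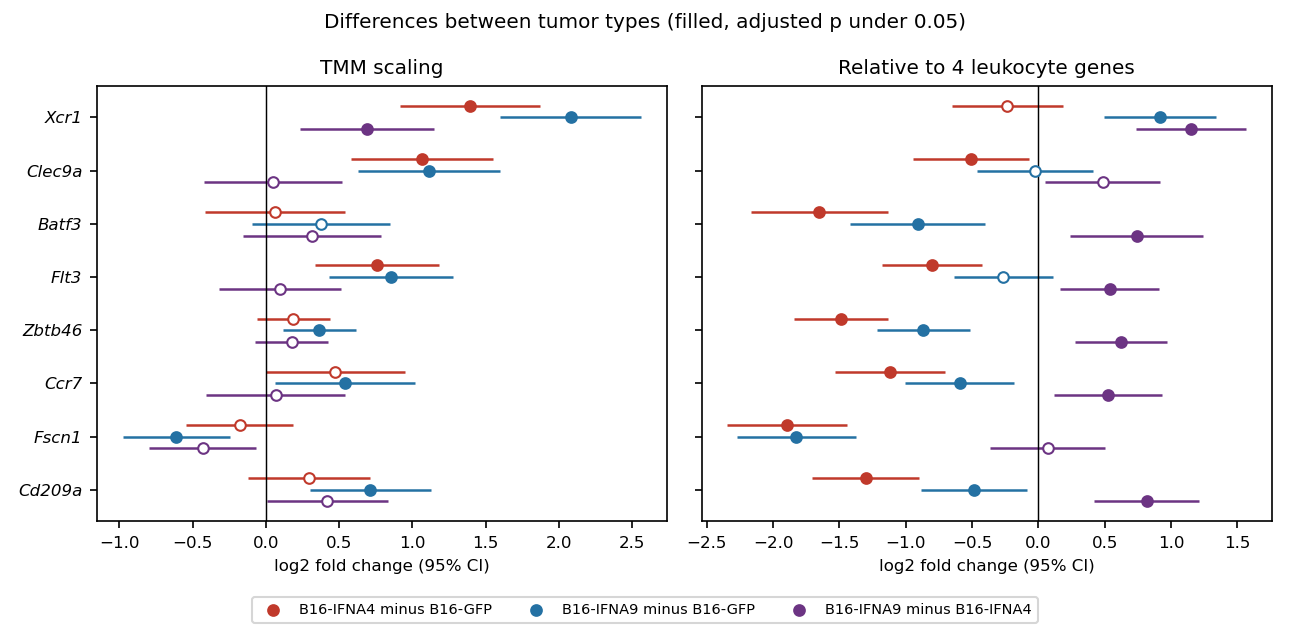
Log2 fold change of each gene in the 3 comparisons with its 95% confidence interval, after TMM scaling on the left and relative to 4 leukocyte genes on the right; filled points have an adjusted p under 0.05. On the left 3, 7 and 1 of the 8 genes are filled, and on the right Xcr1 in B16-IFNA9 is the only gene above 0 against B16-GFP.

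The 4 pan-leukocyte genes examined rose in both interferon types. Ptprc, which encodes CD45, rose by 2.65 ± 0.23 (adjusted p = 6.21e-11) in B16-IFNA4 and by 2.14 ± 0.23 (adjusted p = 8.18e-09) in B16-IFNA9, and Cd53, Laptm5 and Coro1a rose in both. The 8 genes were therefore also tested relative to the geometric mean of the counts of these 4 leukocyte genes. On that scale the median of all genes moved to -1.79, -1.34 and 0.46 in the 3 comparisons, and 94.3%, 89.3% and 26.3% of all genes were called, so that values are best read against those medians. In B16-IFNA4, 7 of the 8 genes were called and all were lower, as were 91.4% of all genes, with a median of -1.21, and Xcr1 was at -0.23 ± 0.21 (adjusted p = 0.274). In B16-IFNA9, 5 genes were lower, as were 86.3% of all genes, Xcr1 was higher by 0.92 ± 0.21 (adjusted p = 0.00014) where 3.03% of all genes were higher, and Clec9a and Flt3 were not called (-0.02 ± 0.22 and -0.26 ± 0.18). Between the interferon types 6 genes were higher in B16-IFNA9, all but Clec9a (0.48 ± 0.21, adjusted p = 0.0788) and Fscn1, where 25.4% of all genes were higher and 0.973% lower, with Xcr1 at 1.15 ± 0.20 (adjusted p = 0.000313). The median of the 8 genes was -0.54 in B16-IFNA9 against B16-GFP and 0.58 between the interferon types.

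These relative values rest on the choice of leukocyte genes, since Ptprc rose by more than Laptm5 (0.89 ± 0.18 in B16-IFNA4 and 0.75 ± 0.18 in B16-IFNA9). Of the 6 calls between the interferon types, that of Ccr7 (adjusted p = 0.0494) was lost in 20 of 30 fits that each left out 1 tumor, that of Flt3 in 7 and that of Batf3 in 3. Without B16-IFNA4 tumor 1 or tumor 6, 3 genes were called. Clec9a, in contrast, gained a call between the interferon types without B16-GFP tumor 7 (0.48, adjusted p = 0.0452), which made 7 genes, without B16-IFNA4 tumor 8 (0.58, adjusted p = 0.0365) and when only the 20 tumors of those types were fitted (0.48, adjusted p = 0.0223). The Clec9a call in B16-IFNA4 (-0.51, adjusted p = 0.0266) was lost in 3 of the fits that left out 1 tumor and with only the 20 tumors compared (-0.51, adjusted p = 0.0502). With Ptprc alone as the scale the median of all genes moved further, to -2.88, -2.32 and 0.56 in the 3 comparisons, and 97.9%, 97.2% and 9.15% of all genes were called. On this scale Xcr1 was lower in B16-IFNA4 (-1.20, adjusted p = 9.18e-06), where 96.9% of all genes were lower, and was not called in B16-IFNA9 (0.06, adjusted p = 0.8), Clec9a and Flt3 were lower in B16-IFNA9 (-0.88 and -1.12), where 96.1% of all genes were lower, and 2 rather than 6 genes were higher between the interferon types, where 8.82% of all genes were higher.

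Other genes known from the same cells were grouped in lists. The counts of this list and of those below stand beside the shares of all genes tested. Of all genes, 31.3% rose and 34.1% fell in B16-IFNA4, and 26.9% rose and 28.9% fell in B16-IFNA9. Between the interferon types 10.5% of all genes were higher and 7.25% lower in B16-IFNA9. Of 14 further cDC1 genes tested, 11 rose and 1 fell in B16-IFNA4, with a median of 1.01, and 13 rose in B16-IFNA9, with a median of 0.94. Irf8, a transcription factor of cDC1 and plasmacytoid dendritic cells, rose by 1.43 ± 0.21 (adjusted p = 1.09e-06) and 1.72 ± 0.21 (adjusted p = 1.18e-07). Of 6 markers of plasmacytoid dendritic cells, 4 rose in B16-IFNA4, among them Siglech (1.70 ± 0.31, adjusted p = 2.07e-05) and Ccr9 (1.73 ± 0.21, adjusted p = 3.2e-08), and 3 rose and 1 fell in B16-IFNA9. They summed to 121 to 358 CPM in B16-GFP, 253 to 349 in B16-IFNA4 and 149 to 334 in B16-IFNA9. Most of this sum came from Tcf4 and Ly6d, with means of 126 and 105 CPM over the 30 tumors. Siglech and Ccr9 had means of 1.86 and 2.56 CPM, so that the sum says little about them. The part of the plasmacytoid markers in the Irf8 values was not tested. Siglech and Ccr9 are named after their values were seen. Wdfy4, which cDC1 need to cross-present antigen, rose by 0.96 ± 0.18 (adjusted p = 2.42e-05) and 0.95 ± 0.18 (adjusted p = 4.69e-05). Ifi205, an interferon-inducible gene and the highest of the list, rose by 2.00 ± 0.19 (adjusted p = 2.19e-10) and 1.43 ± 0.18 (adjusted p = 2.46e-07). Cadm1, an adhesion molecule that many cells other than cDC1 carry, fell by 0.33 in B16-IFNA4 (adjusted p = 0.0165) and rose by 0.31 in B16-IFNA9 (adjusted p = 0.0279), and Ppt1 rose by 0.19 (adjusted p = 0.0273) and 0.26 (adjusted p = 0.00438). B16-IFNA9 exceeded B16-IFNA4 in 4 of the genes, namely Cadm1 (0.64 ± 0.12), Naaa (0.51 ± 0.18), Gcsam (0.81 ± 0.24) and Tlr11 (1.15 ± 0.30), and Ifi205 was lower (-0.58 ± 0.18). Naaa, Gcsam and Tlr11 are named after their values were seen. Id2 was not analysed here. Of the lists below, Cd80, Cd83, Ebi3, Cacnb3 and Apol7c of the mature dendritic cells were not analysed either, nor were Csf2rb and Ccr6 of the growth factors and attractants. Il4i1 of the mature dendritic cells did not pass the filter on low values.

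Among 12 genes of cDC2 and monocyte-derived dendritic cells, 9 rose and 1 fell in B16-IFNA4 (median 0.89) and 9 rose in B16-IFNA9 (median 0.98). The shares of all genes were 31.3% higher and 34.1% lower in B16-IFNA4, and 26.9% and 28.9% in B16-IFNA9. Sirpa, an inhibitory receptor of myeloid cells, rose by 0.55 ± 0.09 (adjusted p = 2.57e-06) and 0.27 ± 0.09 (adjusted p = 0.01). Clec10a, a lectin named after its values were seen, was the gene that fell in B16-IFNA4 (-0.87 ± 0.23, adjusted p = 0.0014). Fcgr1, the high-affinity IgG receptor that monocyte-derived cells carry, rose by 2.55 ± 0.18 (adjusted p = 4.63e-13) and 1.70 ± 0.17 (adjusted p = 3.14e-09). Klf4, a transcription factor, rose in B16-IFNA4 (0.67 ± 0.20, adjusted p = 0.00455) and was at 0.32 ± 0.20 in B16-IFNA9. Between the interferon types Mgl2, a lectin named after its values were seen, was the gene that was higher in B16-IFNA9 (0.93 ± 0.22, adjusted p = 0.00344), and Sirpa and Fcgr1 were lower (-0.29 ± 0.09 and -0.85 ± 0.17). Summed over 4 monocyte markers the level was 125 to 368 CPM in B16-GFP, 946 to 1842 in B16-IFNA4 and 508 to 1177 in B16-IFNA9, and over 7 macrophage markers 438 to 1969, 923 to 1582 and 935 to 1779. Their part in the values of this list and of Cd209a was not tested.

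Of 18 genes of mature dendritic cells tested, 15 rose and 1 fell in B16-IFNA4 (median 0.82) and 13 rose in B16-IFNA9 (median 0.89). Over all genes 31.3% rose and 34.1% fell in B16-IFNA4, and 26.9% rose and 28.9% fell in B16-IFNA9. Cd274, which encodes the checkpoint ligand PD-L1 and is interferon-inducible in many cells, rose by 2.72 ± 0.25 (adjusted p = 1.29e-10) and 3.18 ± 0.25 (adjusted p = 1.46e-11). Tmem123 and Anxa3 rose by 0.29 ± 0.08 and 0.77 ± 0.16 in B16-IFNA4 and by 0.31 ± 0.08 and 0.43 ± 0.16 in B16-IFNA9. Ccl22, a chemokine of mature dendritic cells that draws CCR4+ T cells, was at -0.24 ± 0.21 (adjusted p = 0.31) in B16-IFNA4 and rose by 0.85 ± 0.21 (adjusted p = 0.00114) in B16-IFNA9. Il12b, a subunit of interleukin-12, was called in neither (0.26 ± 0.28 and 0.57 ± 0.28). Between the interferon types 3 genes were higher in B16-IFNA9, Ccl22 (1.09 ± 0.21, adjusted p = 0.00047), Ccl17 (2.44 ± 0.32, adjusted p = 3.39e-06) and Pdcd1lg2 (1.03 ± 0.27, adjusted p = 0.00836), and 3 were lower, Relb (-0.56 ± 0.16), Socs2 (-0.59 ± 0.20) and Slco5a1 (-0.77 ± 0.21). All of these but Ccl22 are named after their values were seen. Ccl17, the other CCR4 ligand, was also the gene that fell in B16-IFNA4 (-0.85 ± 0.33, adjusted p = 0.0255), and it rose in B16-IFNA9 (1.60 ± 0.31, adjusted p = 6.89e-05). Cd274, Relb and others of this list are also made by other cells. Of the 4 monocyte markers, 4 rose in B16-IFNA4 (median 2.34) and 3 in B16-IFNA9 (median 1.67), and the 4 pan-leukocyte genes rose in both (medians 1.51 and 0.95), from sums of 131 to 479 CPM in B16-GFP to 754 to 1558 in B16-IFNA4 and 518 to 1027 in B16-IFNA9. Their part in the values of this list and of the cDC1 list was not tested.

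Of 10 growth factors and attractants of dendritic cells tested, 9 rose in B16-IFNA4 (median 1.63) and 8 in B16-IFNA9 (median 1.67), and none fell. Among all genes 31.3% and 26.9% rose and 34.1% and 28.9% fell in these types. Flt3l, the ligand of FLT3, rose by 1.72 ± 0.18 (adjusted p = 1.88e-09) and 1.51 ± 0.18 (adjusted p = 4.74e-08). Xcl1, the ligand of XCR1, rose by 3.28 ± 0.27 (adjusted p = 1.94e-11) and 2.93 ± 0.27 (adjusted p = 4.04e-10), from a mean of 0.983 ± 0.626 CPM (SD, n = 10) in B16-GFP to 9.79 ± 2.29 in B16-IFNA4 and 7.66 ± 1.78 in B16-IFNA9. NK and T cells are known to make XCL1, and 4 NK cell markers summed to 1.96 to 9.51 CPM in B16-GFP, 33.7 to 146 in B16-IFNA4 and 19.98 to 96.2 in B16-IFNA9, whose part in the Xcl1 values was not tested. Of the CCR7 ligands, Ccl21a rose by 1.52 ± 0.26 (adjusted p = 1.14e-05) and 1.26 ± 0.26 (adjusted p = 0.000173), and Ccl19 rose in B16-IFNA4 (1.54 ± 0.32, adjusted p = 0.000129) and was at 0.70 ± 0.32 (adjusted p = 0.0657) in B16-IFNA9. Ccr2, the receptor by which monocytes enter tissue, rose by 1.91 ± 0.20 and 1.65 ± 0.20, and Cxcl12 was called in neither (0.06 ± 0.15 and -0.16 ± 0.15). None of the 10 was higher in B16-IFNA9 than in B16-IFNA4, where Ccl4 (-1.80 ± 0.20) and Ccl5 (-0.75 ± 0.23), named after their values were seen, were lower. Xcl1 and Flt3l differed between the interferon types by -0.35 ± 0.24 (adjusted p = 0.336) and -0.21 ± 0.17 (adjusted p = 0.45).

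**Figure D4:**
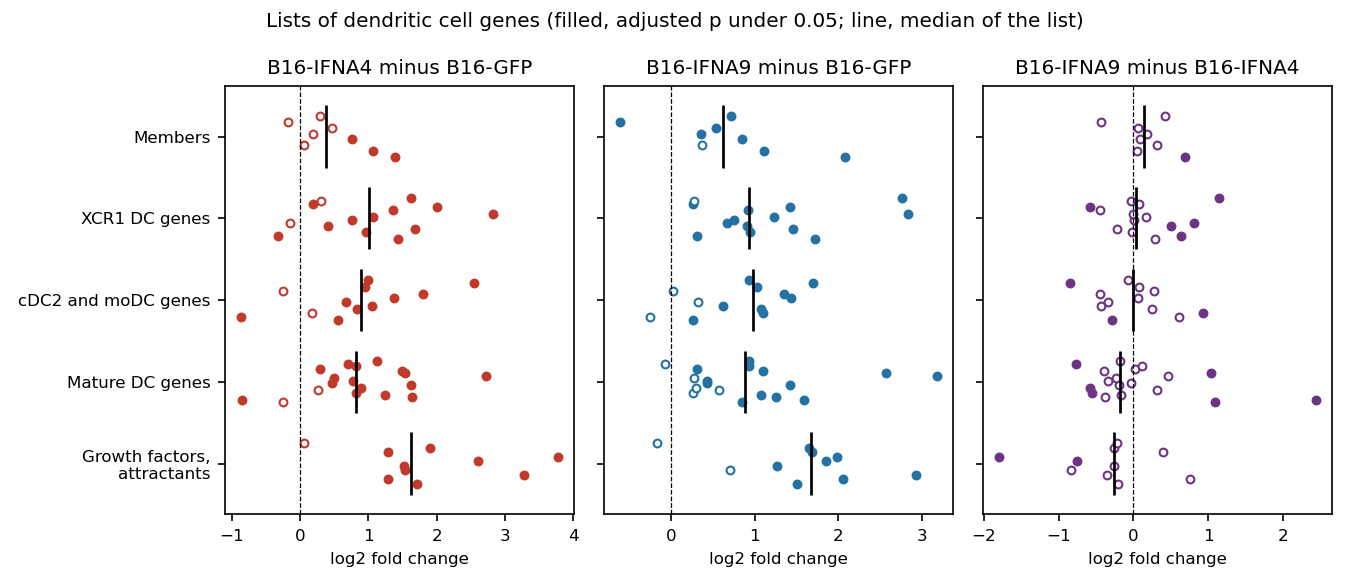
Log2 fold change of the 8 genes (top line) and of 4 lists of further dendritic cell genes in the 3 comparisons, one point per gene, filled where the adjusted p was under 0.05, with the median of each list as a vertical line. Against B16-GFP the list medians run from 0.82 to 1.67, above the 0.38 and 0.63 of the 8 genes, and between the interferon types they run from -0.25 to 0.04.

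The 8 genes did not vary as 1 block. With the means of the tumor types taken out, Pearson's r between pairs of the 8 genes over the 30 tumors ran from -0.17 (Xcr1 with Fscn1) to 0.84 (Xcr1 with Clec9a), with a median of 0.51 over 28 pairs. These points share library and scaling, and B16-GFP tumor 7 was low in most of the genes. Without it the range was -0.31 to 0.84 and the median 0.38. Flt3 was close to Cd209a (0.81), Clec9a (0.79) and Ccr7 (0.78), and these were 0.71, 0.64 and 0.60 without that tumor. Batf3 had r of 0.06 with Xcr1 and 0.02 with Clec9a, and 0.08 and 0.05 without that tumor. Its highest value was 0.38, with Fscn1, and without that tumor its r was 0.40 with each of Flt3, Ccr7 and Fscn1, where Flt3 and Ccr7 had been at 0.23 and 0.29. Within each type on its own, Clec9a and Flt3 had r of 0.87 in B16-GFP (permutation p = 0.00176, adjusted over 9 relations 0.00528), 0.61 in B16-IFNA4 (p = 0.0644, adjusted 0.145) and 0.33 in B16-IFNA9 (p = 0.382, adjusted 0.43). Spearman's rho was 0.72, 0.53 and 0.54 (p = 0.024, 0.123 and 0.114), and r was 0.56, 0.38 and 0.40 without the 2 tumors farthest from the median of Clec9a, so that the relation in B16-GFP rests in part on those tumors.

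**Figure D5:**
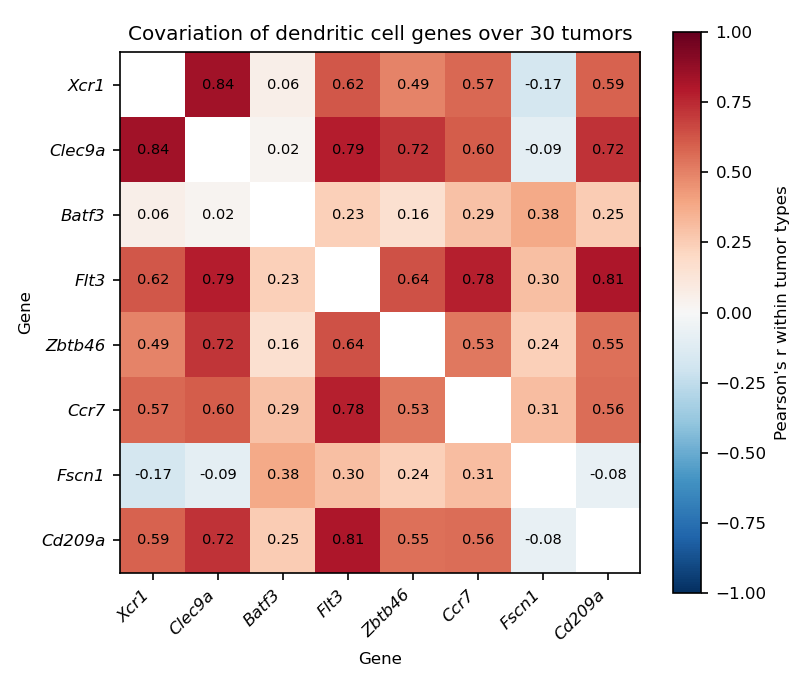
Pearson's r of log2 CPM between each pair of the 8 genes over 30 tumors, after the mean of each tumor type was taken out; colors run from -1 to 1. Xcr1 and Clec9a have the highest value (0.84), and the Batf3 and Fscn1 lines are the palest.

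The genes most like each of the 8, by the same measure over 30 tumors and all genes tested, were mostly not in the lists. For Xcr1 they were Klrb1f (0.86), Clec9a (0.84) and Skint11 (0.84), and for Clec9a they were Clca3a2 (0.86), Clca3b (0.86) and Apol7a (0.86). For Flt3 they were Sh3d21 (0.91), Gpr160 (0.90) and Tcaf2 (0.90), and for Ccr7 they were Traf1 (0.90), Mfhas1 (0.81) and Il10ra (0.81). Cd209a was closest to its paralog Cd209d (0.89), to Mgl2 (0.89) and to Gpr141b (0.85). Batf3 was closest to Map4k1, Ptpn6 and Plcg2 (0.70, 0.70 and 0.70), Zbtb46 to Ptgir, Rtl5 and Itga11 (0.76, 0.76 and 0.74), and Fscn1 to Tsku, Col16a1 and Ring1 (0.90, 0.90 and 0.89). Without B16-GFP tumor 7 these values were between 0.63 and 0.90.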

How the data were processed

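RNA of 30 whole tumors was sequenced by the study as stranded mRNA libraries with 50-base single-end reads. Per the methods, reads were checked with FastQC (0.11.3), aligned to the mouse genome with HISAT2 (2.0.4) and counted per gene with summarizeOverlaps. The submitters' processing notes give the build as mm10 and the methods name another, and the identifiers of the 8 genes carry the same versions as in GENCODE M21 (GRCm38), whose coordinates are given. The strand and multi-mapping settings are not given in the sources used here. The authors deposited raw counts for 39676 gene identifiers, of which 39495 were paired with a symbol through GENCODE M21 gene names (GRCm38). No values were pooled.

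From these counts, genes whose counts averaged 10 or more were kept (15926), libraries were scaled with TMM, and edgeR's quasi-likelihood test (edgeR 4.0.16, R 4.3.3) was fitted to all 30 tumors with the tumor type as the only term. A difference was called at a Benjamini-Hochberg adjusted p under 0.05 over all genes tested. The same test was repeated with each library scaled to the geometric mean of its counts in Ptprc, Cd53, Laptm5 and Coro1a. Levels are CPM after TMM scaling, and log2 levels had 2 counts added. Permutation tests were two-sided with 100000 resamples (scipy 1.17.1). The test was also run on simulated data, with 200 genes changed in B16-IFNA4 in either direction and a dispersion of 0.08. Against B16-GFP it recovered 25 of 100 genes changed 1.5-fold and 87 of 100 changed 2-fold. Between the interferon types it recovered 31 and 90. Far fewer genes changed there than were called in the data, so that these shares need not hold for the data. No 2 libraries held identical counts.

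The 8 genes and the lists of further genes were chosen with earlier results of these data known. Named were the 8 genes, the 3 genes of each dendritic cell list with the highest mean level, a few set ligands and regulators, and the 3 genes most like each of the 8. The labels do not say whether tumors with the same replicate number in different groups share more than the number, which was not used in the main fit. Nor do they say whether the tumors came from a single inoculation experiment or from several, so that no batch could be examined. The alternatives were DESeq2 (1.42.0) and its size factors, library totals, other filters, fits of the 20 tumors compared, the replicate number as a block, Ptprc alone and leaving out each tumor. The labels call the samples biological replicates.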

Additional observations from a re-analysis of the deposited data

Results flagged for a closer look

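In 4 of the 24 groups formed by 8 genes and 3 tumor types, the lowest tumor stood apart from the other 9, by a gap past Dixon's 95% critical value on the log2 CPM scale. Chance would give about 1.2 such groups. Tumor 7 of B16-GFP was lowest in Flt3, at 0.248 where the next tumor had 1.86, and in Cd209a, at 2.86 where the next had 3.82. Tumor 6 of B16-IFNA4 was lowest in Clec9a, at 2.14 where the next had 2.75. Tumor 10 of B16-IFNA9 was lowest in Flt3, at 2.57 where the next had 3.1. Without B16-GFP tumor 7, 3, 6 and 1 of the 8 genes were called in the 3 comparisons in place of 3, 7 and 1, and the gene that was lost was Ccr7 in B16-IFNA9 against B16-GFP (0.44, adjusted p = 0.0689). With all 30 tumors, 65.4%, 55.7% and 17.8% of all genes were called. Relative to the 4 leukocyte genes, 7 genes in place of 6 were called between the interferon types without this tumor, with Clec9a added (0.48, adjusted p = 0.0452). On that scale 26.3% of all genes were called between these types with all 30 tumors.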

How the results depend on the processing

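After TMM scaling, 3, 7 and 1 of the 8 genes were called for B16-IFNA4 against B16-GFP, B16-IFNA9 against B16-GFP and B16-IFNA9 against B16-IFNA4. Of all genes, 65.4%, 55.7% and 17.8% were called in the same comparisons. The shares of all genes in the fits that left out 1 tumor, compared 20 tumors or used a block are not given here. With only the 20 tumors compared the last count was 2, with Fscn1 added (-0.44, adjusted p = 0.0226). Leaving out 1 tumor at a time gave 3 to 4, 6 to 8 and 0 to 2. Relative to the 4 leukocyte genes the counts were 7, 6 and 6, beside 94.3%, 89.3% and 26.3% of all genes. Leaving out 1 tumor gave 6 to 7, 6 to 6 and 3 to 7. With only the 20 tumors compared, Clec9a on this scale lost its call in B16-IFNA4 (-0.51, adjusted p = 0.0502) and gained one between the interferon types (0.48, adjusted p = 0.0223). Relative to Ptprc alone the count between the interferon types was 2, beside 9.15% of all genes. The 4 lost calls (Batf3, Flt3, Zbtb46 and Ccr7) had higher log2 differences with wider errors (Batf3 0.80 ± 0.32, adjusted p = 0.0865). Ccr7 in B16-IFNA9 lost its call with no filter (adjusted p = 0.0685) and with the 20 tumors compared (0.0842), and Ccr7 in B16-IFNA4 gained one with DESeq2 (0.0465). DESeq2 size factors, library totals and edgeR's own filter changed no call that the 8 genes had after TMM scaling. They were not run on the leukocyte scale.

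Signs that turned when 1 tumor was left out belonged to values near 0. Batf3 in B16-IFNA4 against B16-GFP ran from -0.0767 to 0.214 and Clec9a between the interferon types from -0.0204 to 0.119. Relative to the leukocyte genes, Clec9a in B16-IFNA9 against B16-GFP ran from -0.0962 to 0.135 and Fscn1 between the interferon types from -0.0809 to 0.135.

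Replicate numbers were shared between groups, but same-numbered tumors did not vary together. The median correlation of their deviations was -0.03, -0.10 and -0.01 in the 3 comparisons, and 2, 2 and 0 of 10 pairs were above 0.1. With the replicate number as a block the counts were 4, 7 and 1 after TMM scaling, with Ccr7 in B16-IFNA4 added (0.62, adjusted p = 0.0245), and 6, 6 and 4 relative to the leukocyte genes, without Clec9a in B16-IFNA4 and without Ccr7 and Flt3 between the interferon types.

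The ratio of Xcr1 to Clec9a, with alternatives chosen after seeing the data, kept its direction in every fit that left out 1 tumor, from 0.87 to 1.04 in B16-IFNA9 against B16-GFP and from 0.55 to 0.69 between the interferon types. Batf3 had 15 to 48 counts per tumor, and its 95% intervals span more than 0.9 on the log2 scale.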
